A study of Mus musculus with 8 samples.

Results

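SIX-family homeodomain factors, EYA coactivators and DACH corepressors form a transcription network that muscle uses in development, regeneration and fiber type control. Members were taken as the rows of the deposited gene table whose symbol was *Six2*, *Six4*, *Six5*, *Eya1*, *Eya2*, *Eya3*, *Eya4*, *Dach1* or *Dach2*, which gave 9 of 55401 genes. RNA-seq had been performed on whole tibialis anterior (TA) muscles, 4 WT of the C57/Bl6 strain and 4 *mdx5cv*, and the series describes the mice as males at 6 mo of age. The *mdx5cv* mouse models Duchenne muscular dystrophy (DMD), carries a mutation in *Dmd*, the dystrophin gene, and is kept on the same background. The 8 libraries are labelled as separate samples, but nothing in the labels says that each came from a mouse of its own, so p-values measure the spread between these samples, which may be technical.

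In this network a SIX-family protein binds DNA at sites such as the MEF3 motif, and an EYA protein, which has no DNA-binding domain of its own, joins it and brings activation as well as a phosphatase activity. DACH proteins, relatives of the SKI and SNON corepressors, can join the same complex and turn it toward repression. In muscle, SIX-family proteins are known to act on *Myog*, *Myod1* and genes of fast fibers. *Dach2* is known from studies of denervation, where it acts as a repressor of *Myog*, the gene for myogenin.

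The measurement was the normalized count, in which the reads of a muscle are divided by a size factor for that muscle. Recovered reads ranged from 13862559 to 14921057 in WT and from 13175524 to 14502624 in *mdx5cv* muscles. The size factors were all lower in WT, from 0.873 to 0.944, than in *mdx5cv*, from 1.06 to 1.25. With each muscle scaled to the same total instead, the median over all tested genes went from a log2 fold change of 0.00 to 0.36, so small falls depend on the scaling. Limma was fitted to log2(normalized count + 1) for the 13677 genes whose normalized count averaged 10 or more, and p-values were adjusted by Benjamini-Hochberg over all of them. A fold change on this scale understates the change of a gene with few reads. *Dmd* itself had 6169 to 8155 normalized counts in WT and 3461 to 4400 in *mdx5cv*, with a log2 fold change of -0.81 (SE 0.12, adjusted p = 0.000177).

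*Dach2* was nearly lost from the *mdx5cv* muscles, with 482 reads over the 4 WT muscles and 8 over the 4 *mdx5cv* muscles. *Six4*, *Eya1*, *Eya4* and *Dach1* were lower in *mdx5cv* by 0.37 to 0.52 on the log2 scale, and *Eya3* was higher by 0.53. The values of *Six5* and *Eya2* overlapped between genotypes and did not pass the test, and *Six2* was too low to be tested. Of the 8 members tested, 5 were lower and 1 was higher at an adjusted p under 0.05, whereas 20.1% of all genes tested were lower and 20.9% were higher. With a log2 fold change of 1 or more in either direction as well, 1 member (*Dach2*) passed, beside 13.6% of all genes. The 4 values of each genotype did not overlap for 5 of the 8 members, beside 40.1% of all genes tested. The median log2 fold change of the 8 members was -0.37, beside 0.00 over all genes tested, and no test was made of the members as a list. Under equal totals 1 member was lower (*Dach2*) and 1 was higher (*Eya3*), and over all genes the split moved from 2854 higher and 2743 lower to 5444 higher and 820 lower.

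**Figure D1:**
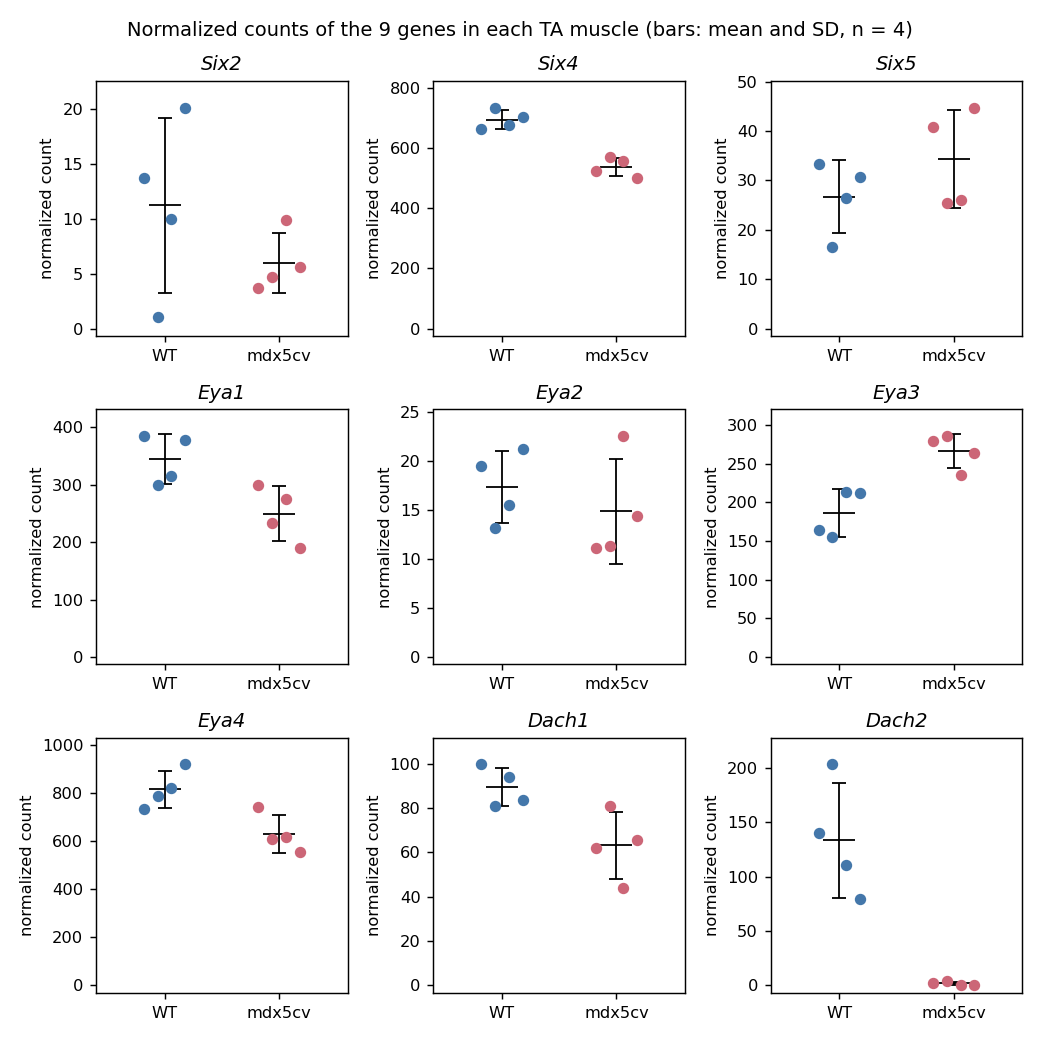
Normalized counts (vertical axis, linear) of the 9 genes in each TA muscle, with 1 point per muscle, blue for WT and red for *mdx5cv*, and black bars for the mean and SD of 4 muscles. The *Dach2* points lie between 79.4 and 203 in WT and at or under 3.77 in *mdx5cv*, the *Eya3* points are higher in *mdx5cv*, and the *Six2*, *Six5*, *Eya2* and *Eya4* points overlap.

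*Six4*, a SIX-family factor expressed through muscle development and in adult muscle, was the most abundant of its 3 paralogs here. The gene spans 73099609 to 73113456 on the minus strand of chromosome 12 (GRCm38, GENCODE M21, as for all positions below). Its normalized counts were 666, 736, 678 and 703 in WT muscles 1 to 4 and 524, 571, 556.5 and 502 in *mdx5cv* muscles 1 to 4. Every *mdx5cv* muscle was below every WT muscle, and the spread within each genotype was narrow, 695.75 ± 31.1 for WT and 538 ± 31.1 for *mdx5cv* (SD, n = 4). The log2 fold change was -0.37 (SE 0.09, 95% interval -0.57 to -0.17, adjusted p = 0.00674), and the call was made under 18 of 19 alternatives. It was lost under equal totals, where the log2 fold change was -0.01 (adjusted p = 0.9345).

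One short stretch near the *Six4* start is shown because it holds the letters of the MEF3 motif, the site that SIX-family factors are known to bind. The window covers chr12:73113326-73113354 (GRCm38, minus strand, from the RefSeq promoter table), with the 9 bases of the motif in capitals, here as the reverse complement of TCAGGTTTC.

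*Six4*: tggcctggggGAAACCTGAtcggccagat

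These 9 bases stand at chr12:73113336-73113344, from -99 to -91 relative to the downstream of 2 annotated starts, which lie 180 bases apart, and so between the starts and inside an exon of the longer *Six4* transcript. TCAGGTTTC was found on either strand in the 250 bases before the start of 0.387% of 32851 promoters of the table, and its core TCAGGTT, which lies within it, in 3.49%. Among the 10 promoters of the 7 members in that table, which are all members but *Eya1* and *Eya2*, it was found before this 1 start alone. A match of letters is a description and does not show binding.

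*Six5*, on the plus strand of chromosome 7 from 19094594 to 19098549, lies next to *Dmpk*, the gene of myotonic dystrophy, and was low in all muscles. Its normalized counts were 33.2, 16.5, 26.5 and 30.7 in WT and 40.8, 25.5, 26.1 and 44.7 in *mdx5cv*, from 15 to 56 reads per muscle. The genotypes overlapped, and the *mdx5cv* muscles fell into a higher and a lower pair. The log2 fold change of 0.35 (SE 0.27, 95% interval -0.24 to 0.94, adjusted p = 0.333) was within the spread of the muscles and passed under none of the 19 alternatives, over which the adjusted p ranged from 0.08069 to 0.6909. *Dmpk*, which lies 0.773 kb upstream of *Six5*, had a log2 fold change of -0.20 (SE 0.13, adjusted p = 0.237).

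*Six2*, a SIX-family factor known best from kidney progenitors, was close to the limit of this depth. The gene spans 85684277 to 85688274 on the minus strand of chromosome 17. Its reads were 12, 1, 9 and 19 in WT muscles 1 to 4 and 4, 5, 11 and 7 in *mdx5cv* muscles 1 to 4, so WT muscle 2 held 1 read and lay below all *mdx5cv* muscles. The mean normalized count of 8.61 over the 8 muscles was under the minimum of 10. Fitted without that filter, *Six2* had a log2 fold change of -0.47 (SE 0.60, adjusted p = 0.610 over 28501 genes), a difference not detectable at this depth.

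*Eya4*, an EYA coactivator known from the inner ear and the heart, had the highest level of all members. On chromosome 10 it covers 23102963 to 23350786 of the minus strand. Muscle by muscle, the normalized counts of *Eya4* were 737, 789, 821.5 and 921 in WT and 743, 610.35, 619 and 556 in *mdx5cv*. The first *mdx5cv* muscle lay inside the WT range, just above WT muscle 1, while the other 3 lay below all WT muscles. *Eya4* had a log2 fold change of -0.37 (SE 0.11, 95% interval -0.62 to -0.13, adjusted p = 0.0184). The call was lost in 2 of 19 alternatives, under equal totals with a log2 fold change of -0.02 (adjusted p = 0.9363) and without WT muscle 4 (log2 fold change -0.31).

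*Eya1*, which is known to work with SIX-family factors in the early steps of myogenesis and in the fast fiber program, was lower by a similar amount. The gene spans 14168954 to 14310235 on the minus strand of chromosome 1. Its normalized counts were 385, 299.45, 315 and 378 in WT and 299.24, 234, 276 and 190.2 in *mdx5cv*. The genotypes did not overlap, but the highest *mdx5cv* muscle and the lowest WT muscle were almost equal. *Eya1* had a log2 fold change of -0.47 (SE 0.15, 95% interval -0.80 to -0.15, adjusted p = 0.0214). The call was lost in 4 of 19 alternatives, namely equal totals (log2 fold change -0.12, adjusted p = 0.5516) and the fits without WT muscle 1, without WT muscle 4 and without *mdx5cv* muscle 4, with log2 fold changes from -0.43 to -0.35.

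*Eya3*, a broadly expressed EYA protein whose phosphatase has been linked to DNA repair, was the 1 member that rose. It spans 132638987 to 132724765 on the plus strand of chromosome 4. WT muscles 1 to 4 had normalized counts of 164, 156, 213 and 212, and *mdx5cv* muscles 1 to 4 had 279.8, 286, 236 and 264.5. No *mdx5cv* muscle was as low as the highest WT muscle, and the means were 186 ± 30.7 for WT and 267 ± 22.3 for *mdx5cv* (SD, n = 4). *Eya3* had a log2 fold change of 0.53 (SE 0.13, 95% interval 0.24 to 0.82, adjusted p = 0.00723), a 1.44-fold rise. It passed under all 19 alternatives, with log2 fold changes from 0.43 to 0.88 and adjusted p-values up to 0.02712.

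*Eya2*, an EYA gene of the early myogenic lineages, was low. The gene spans 165595032 to 165771727 on the plus strand of chromosome 2. Its normalized counts were 19.5, 13.2, 15.5 and 21.2 in WT and 11.1, 11.3, 22.5 and 14.4 in *mdx5cv*, from 12 to 25 reads per muscle, and the third *mdx5cv* muscle was the highest of all 8. The log2 fold change of -0.24 (SE 0.30, 95% interval -0.90 to 0.41, adjusted p = 0.55) did not pass, and under equal totals it was 0.09.

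**Figure D2:**
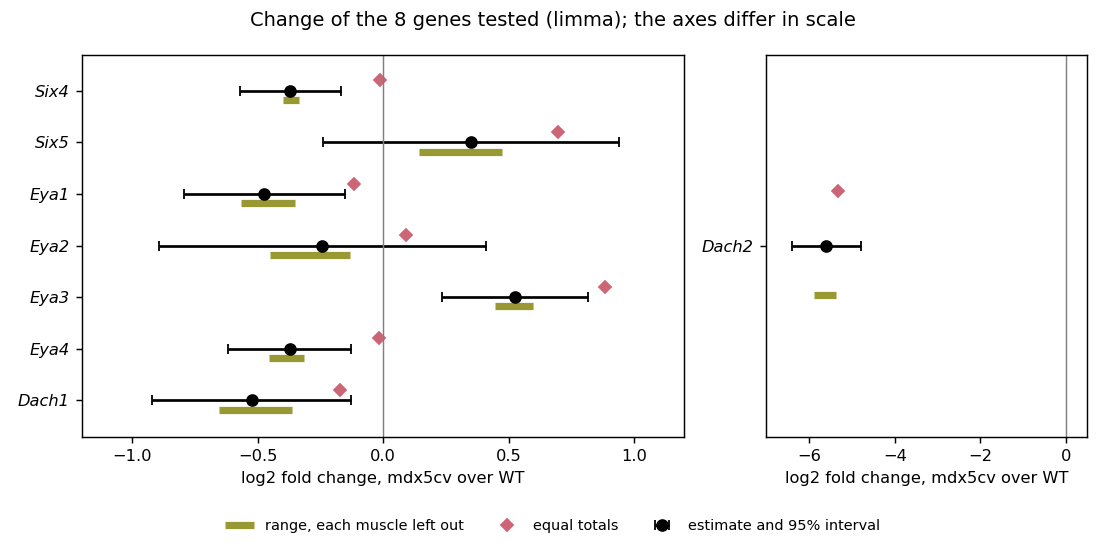
Log2 fold change (horizontal axis, *mdx5cv* over WT, on log2(normalized count + 1)) of the 8 members tested, with *Dach2* on a wider axis. Black points and bars are limma estimates with 95% intervals, olive bars the range when each muscle is left out in turn, and red diamonds the estimate under equal totals, which moves *Six4* and *Eya4* to -0.01 and -0.02 and leaves *Eya3* at 0.88.

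*Dach2*, a corepressor of the SKI and DACH family, had the largest difference of the members. The gene spans 113297510 to 113836386 on the plus strand of chromosome X. Its normalized counts were 139.8, 203, 111 and 79.4 in WT muscles 1 to 4 and 1.85, 3.77, 0.900 and 0.799 in *mdx5cv* muscles 1 to 4. The reads behind these were 122, 185, 100 and 75 in WT and 2, 4, 1 and 1 in *mdx5cv*. No value of one genotype came near the other, although the WT muscles themselves differed, with a mean of 133 ± 52.6 (SD, n = 4). Reads pooled over the 4 muscles of each genotype, scaled by the summed size factors, gave a ratio of WT to *mdx5cv* of 74.7. The 95% exact interval of this ratio, from 37.6 to 174, covers counting error only. On the log2 scale the fold change of *Dach2* was -5.60 (SE 0.37, 95% interval -6.40 to -4.80, adjusted p = 6.23e-07), number 3 from the lowest of the 13677 genes tested. It passed under all 18 alternatives that could test it, with log2 fold changes from -6.28 to -3.53, of which the smallest came with a pseudocount of 10. Requiring 10 or more normalized counts in each muscle removed it from the test, because it is low in *mdx5cv*. In whole muscle, fewer nuclei that express a gene and less RNA per nucleus cannot be told apart, for *Dach2* or for any other member.

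*Dach1*, its paralog, changed far less. The gene lies between 97786853 and 98169765 on chromosome 14, on the minus strand. Its normalized counts were 99.7, 81.2, 94.0 and 83.7 in WT and 62.1, 81.1, 44.1 and 65.5 in *mdx5cv*. The genotypes did not overlap, but *mdx5cv* muscle 2 was practically level with WT muscle 2. *Dach1* had a log2 fold change of -0.52 (SE 0.18, 95% interval -0.92 to -0.13, adjusted p = 0.036). This was the least stable of the 5 lower calls, made under 12 of 19 alternatives. It was lost without the filter on low values (adjusted p = 0.05002), under equal totals (log2 fold change -0.17, adjusted p = 0.5029) and in 5 of the 8 fits that left out 1 muscle, those without WT muscle 1 or 3 or *mdx5cv* muscle 1, 3 or 4.

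The promoters of the 2 DACH genes are shown because the paralogs differed so much in their change. Each sequence is the 250 bases before an annotated start of the gene in RefSeq (GRCm38.p6), 5′ to 3′ on the strand of the gene. For *Dach2* it is the upstream of 2 starts. Capitals mark the motifs found on either strand.

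*Dach2*, chrX:113297260-113297509, plus strand: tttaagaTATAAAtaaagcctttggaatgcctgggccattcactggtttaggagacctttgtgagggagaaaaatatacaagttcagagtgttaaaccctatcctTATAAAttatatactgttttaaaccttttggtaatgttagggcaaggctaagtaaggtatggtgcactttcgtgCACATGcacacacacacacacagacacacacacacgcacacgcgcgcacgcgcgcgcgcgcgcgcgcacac

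*Dach1*, chr14:98169766-98170015, minus strand: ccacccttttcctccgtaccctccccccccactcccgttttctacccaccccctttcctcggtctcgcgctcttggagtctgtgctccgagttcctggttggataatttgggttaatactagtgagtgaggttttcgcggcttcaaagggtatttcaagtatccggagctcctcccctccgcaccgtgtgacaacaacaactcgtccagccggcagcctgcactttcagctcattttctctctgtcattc

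Motifs searched were the E-box CANNTG, the site of myogenic basic helix-loop-helix factors, the MEF3 letters above, TATAAA, and the MEF2 and CArG motifs by name. The *Dach2* stretch holds 1 E-box, CACATG from -71 to -66, next to a repeat of CA, and TATAAA starting at -243 and at -145. The *Dach1* stretch holds none of them. An E-box stands in 66.2% and TATAAA in 12.4% of the 32851 promoters, while the MEF2 motif stands in 2.92% and the CArG motif in 1.47%. The GC content was 45.6% for the *Dach2* stretch shown and 54.8% for *Dach1*, beside a median of 52.4%. RefSeq lists another *Dach2* start 746 bases downstream. The 250 bases before that start hold 0 of the motifs and have a GC content of 67.6%, above that of *Dach1*. The 2 *Dach2* starts thus lie on either side of *Dach1* in GC content, and the counts per gene do not tell the starts apart.

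Levels of the members were compared per kb of merged exon. In WT muscle the order was *Eya4* (86.7 ± 8.21 normalized counts per kb), *Six4* (64.1 ± 2.86), *Eya1* (44.1 ± 5.57), *Eya3* (33.0 ± 5.43), *Dach2* (13.5 ± 5.33), *Dach1* (12.3 ± 1.19), *Six5* (8.89 ± 2.46), *Eya2* (5.85 ± 1.24) and *Six2* (5.30 ± 3.75), each as mean and SD of 4 muscles. Neighbors in this order had separate ranges down to *Dach2*, whose range overlapped that of *Dach1*, and the ranges of *Six5*, *Eya2* and *Six2* overlapped from 1 to the next. In *mdx5cv* muscle *Eya4* was again highest (67.1 ± 8.39) and *Six4* followed (49.6 ± 2.87). *Eya3* (47.2 ± 3.95) came next, above *Eya1* (32.0 ± 6.15), and its range overlapped that of *Six4*. *Dach2* stood last at 0.186 ± 0.14 normalized counts per kb, below the whole range of *Six2* (2.82 ± 1.29).

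These shifts changed the mix of paralogs. *Eya3* made up 19.4% of the summed EYA level per kb in WT (17.8 to 22.2) and 31.4% in *mdx5cv* (27.8 to 34.7). *Eya4* made up 51.2% in WT and 44.3% in *mdx5cv*, *Eya1* 23.7% to 30.2% in WT and at most 23.5% in *mdx5cv*, and *Eya2* 3.43% and 3.35%. *Six4* made up 82.1% of the summed level of *Six2*, *Six4* and *Six5* in WT and 77.7% in *mdx5cv*, with overlapping ranges. *Dach2* made up 51.0% of the DACH level in WT (41.3 to 65.0) and 1.97% in *mdx5cv* (0.896 to 3.33), so the DACH transcripts of the *mdx5cv* muscles were nearly all *Dach1*. The summed DACH level per kb was 25.7 ± 5.20 in WT and 8.82 ± 2.19 in *mdx5cv*, the summed EYA level 170.0 ± 15.6 and 151 ± 14.6, and the summed level of *Six2*, *Six4* and *Six5* 78.3 ± 4.64 and 63.8 ± 0.576 (SD, n = 4). These sums carry no test.

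**Figure D3:**
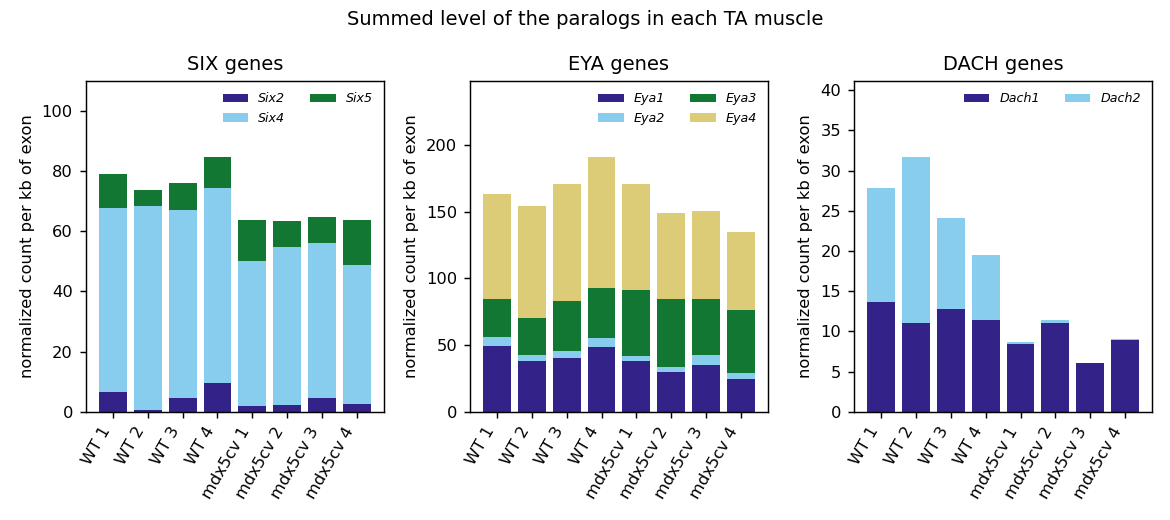
Normalized counts per kb of exon (vertical axis) of the members of each family in each of the 8 TA muscles (horizontal axis), stacked by gene. *Dach2* is 41.3% to 65.0% of the DACH bar in WT and at most 3.33% in *mdx5cv*, and *Eya3* is a larger share of the EYA bar in each *mdx5cv* muscle than in any WT muscle.

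The ratio of paralogs within a muscle hardly depends on how the muscles are scaled. Of 10 pairs of paralogs compared, 3 did not overlap between genotypes and reached p = 0.0286 in a two-sided exact permutation test, the smallest that 4 muscles against 4 allow, with an adjusted p of 0.0952 over the pairs. For *Eya1* over *Eya3* the WT muscles had a mean log2 ratio of 0.89 ± 0.28 and the *mdx5cv* muscles one of -0.11 ± 0.33 (SD, n = 4), so that *Eya1* was above *Eya3* in WT by normalized count and about level with it in *mdx5cv*. For *Eya3* over *Eya4* it was -2.14 ± 0.16 in WT and -1.24 ± 0.18 in *mdx5cv*. For *Dach1* over *Dach2* it was -0.49 ± 0.59 in WT and 4.59 ± 0.46 in *mdx5cv*. The ratio of *Eya1* to *Eya4*, which were both lower, was -1.25 ± 0.21 in WT and -1.35 ± 0.16 in *mdx5cv*, a difference within the spread of the muscles (exact permutation p = 0.4857). The ratio of *Six4* to *Six5* was 4.70 ± 0.49 in WT and 3.98 ± 0.49 in *mdx5cv* (exact permutation p = 0.1143).

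Among 18 partners and cofactors of the network, all of them tested, 5 were higher and 3 were lower, and the median log2 fold change was 0.10. Over all genes tested 20.9% were higher and 20.1% were lower, the shares to set beside this list and those below. *Tle3*, a corepressor of the Groucho family, had the largest rise, from 145 ± 15.7 in WT to 304 ± 42.2 in *mdx5cv* (log2 fold change 1.06, SE 0.13, adjusted p = 4.97e-05). *H2ax*, the histone variant at which EYA phosphatase acts, was higher by 0.73 (SE 0.24, adjusted p = 0.0289). *Skil* and *Ski*, the corepressors related to DACH, were higher by 0.67 and 0.40. *Hdac3*, a histone deacetylase that DACH complexes recruit, fell by 0.56 on the log2 scale (SE 0.13, adjusted p = 0.0033), *Tle5* fell by 0.55 and *Tle1* fell by 0.38. *Sobp*, *Ncor1*, *Sin3a*, *Crebbp*, *Ep300* and *Smarca4* were among the 10 that did not pass. The 3 falls were not called under equal totals, where 10 of the 18 were higher and none was lower. Without *mdx5cv* muscle 4 the count was 3 higher and 3 lower. *H2ax* (adjusted p = 0.0901) and *Ski* (adjusted p = 0.0623) did not pass in that fit. After centring on the median *Ski* did not pass either (adjusted p = 0.074).

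Of 13 myogenic regulators linked to SIX-family factors, 4 were higher and none was lower in *mdx5cv*. *Myog* had normalized counts from 30.9 to 46.4 in WT and from 221 to 754 in *mdx5cv* (log2 fold change 3.14, SE 0.30, adjusted p = 7.61e-06). *Meox1* was higher by 1.80, *Myod1* by 1.44 and *Pax7*, the satellite cell factor, by 0.91. *Myf6*, *Mef2a*, *Mef2c*, *Mef2d*, *Tead1* and *Tead4* did not pass, with adjusted p-values from 0.164 to 0.823. *Myf5* at 0.58, *Pax3* at -0.26 and *Meox2* at -0.29 did not pass either. Under equal totals 10 of the 13 were higher, and after centring on the median 1 was lower.

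Of 15 genes of fast fibers, 8 were lower and none was higher, and the median log2 fold change was -0.53. The largest fall was that of *2310065F04Rik*, a lincRNA gene on the minus strand of chromosome 11 (67112461 to 67120080) near the fast myosin gene *Myh4* (67238029 to 67260446). It had 876 to 1472 normalized counts in WT and 184 to 325 in *mdx5cv* (log2 fold change -2.32, SE 0.19, adjusted p = 2.22e-06). *Myh2*, the myosin of type IIA fibers, had 6351 to 11160 normalized counts in WT and 714 to 5751 in *mdx5cv* (log2 fold change -1.54, SE 0.50, adjusted p = 0.0241). *Tnni2*, *Actn3*, *Tnnt3*, *Aldoa*, *Tnnc2* and *Eno3* were lower by 0.53 to 0.69 on the log2 scale. *Myh4*, at -0.07, and *Myh1*, at -0.14, the myosins of the fastest fibers, did not pass. Under equal totals 2 of the 15 were lower (*Tnni2* and *2310065F04Rik*), and *Atp2a1* was higher.

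Of 7 genes of slow fibers, 4 were higher and 1 was lower. *Tnni1* had the largest rise (log2 fold change 4.15, SE 0.40, adjusted p = 7.28e-06) from 8.85 to 23.3 normalized counts in WT to 117 to 522 in *mdx5cv*. *Tnnc1* was higher by 2.68. *Myl3*, the slow and ventricular light chain, fell by 3.56 on the log2 scale (SE 0.57, adjusted p = 0.000326). *Myh7*, the slow myosin, did not pass (log2 fold change 1.47, SE 0.70, adjusted p = 0.111). Under equal totals 5 of the 7 were higher, *Myh7* among them (log2 fold change 1.82, adjusted p = 0.0457), and 1 was lower. *Tnni1* and *Tnnc1* are also known from regenerating fibers, whose markers were higher in the same muscles. The part of regenerating fibers in the differences of this list was not tested.

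**Figure D4:**
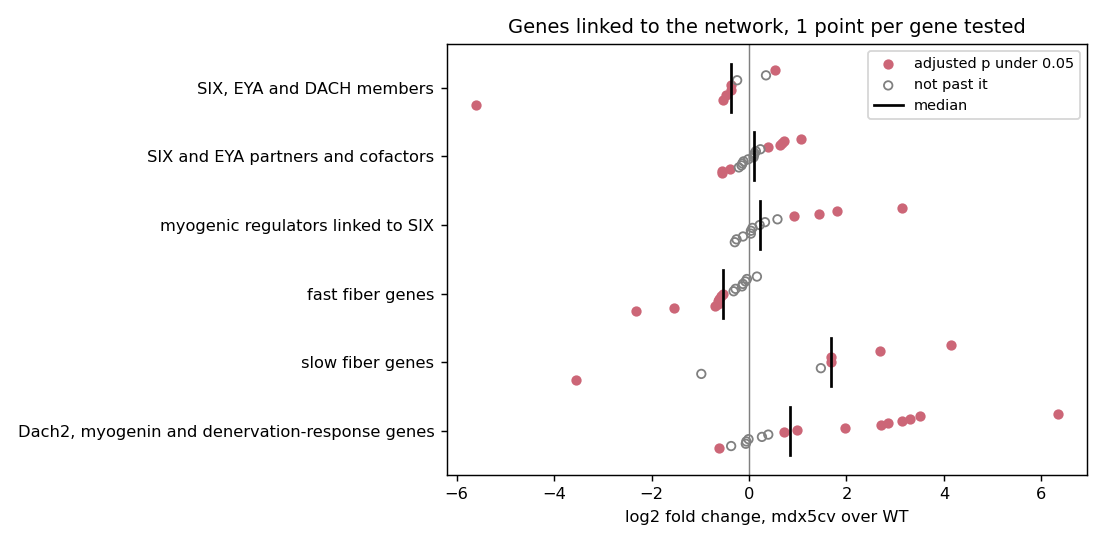
Log2 fold change (horizontal axis, *mdx5cv* over WT) of each gene tested, 1 point per gene, in the members and in the 5 lists of linked genes, with filled red points for an adjusted p under 0.05 and open grey points otherwise. Black bars are medians, at -0.37 for the members, -0.53 for fast fiber genes and 0.85 for the denervation-response genes, beside 0.00 for all genes tested.

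Of 16 genes that denervation studies connect with *Dach2* and *Myog*, 9 were higher and 1 was lower, and the median log2 fold change was 0.85. Among the subunits of the acetylcholine receptor, *Chrng* had 0 to 1.06 normalized counts in the WT muscles and 49.0 to 230.1 in the *mdx5cv* muscles. Also higher were *Chrna1* (log2 fold change 2.85, SE 0.33, adjusted p = 2.81e-05), *Chrnd* (1.97) and *Chrnb1* (0.72), all among the 9. *Runx1*, a transcription factor that rises in denervated muscle, was higher by 3.51 (SE 0.21, adjusted p = 3.99e-07), *Ncam1* by 2.71 and *Gadd45a* by 0.98. The 6 genes of the list that were not called, and the 1 that was lower, were the following. *Hdac4* and *Hdac5*, the deacetylases placed upstream of *Dach2*, had log2 fold changes of -0.06 (adjusted p = 0.69) and -0.07 (adjusted p = 0.678). *Musk*, a gene of the neuromuscular junction, was at -0.01 (SE 0.17, adjusted p = 0.967), and *Hdac9* and *Chrne* were at 0.27 and 0.40 without a call. The atrophy ligases *Fbxo32* and *Trim63* were at -0.62 (adjusted p = 0.0248) and -0.37 (adjusted p = 0.0537). Under equal totals 13 of the 16 were higher and none was lower, *Hdac4* and *Hdac5* being higher by 0.30 and 0.29, while centring on the median gave 9 higher and 2 lower and leaving out *mdx5cv* muscle 4 gave 9 higher and none lower. *Myog* and *Chrng* also mark regenerating fibers, and all 6 markers of these were higher in the same muscles, with summed normalized counts from 118 to 143 in WT and from 2175 to 8502 in *mdx5cv*. Their part in the differences of this list, and in that of *Dach2*, was not tested.

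**Figure D5:**
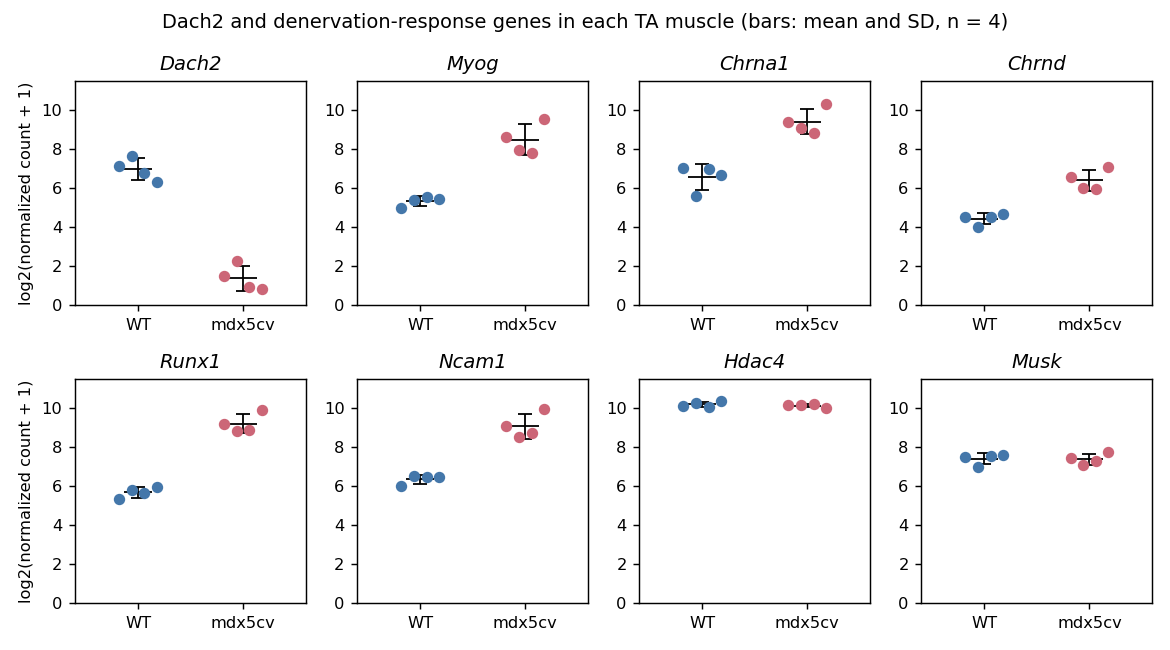
Log2(normalized count + 1) (vertical axis) of *Dach2* and 7 genes of the denervation-response list in each TA muscle, 1 point per muscle, blue for WT and red for *mdx5cv*, with black bars for mean and SD of 4 muscles. *Dach2* is lower in *mdx5cv*, and *Myog*, *Chrna1*, *Chrnd*, *Runx1* and *Ncam1* are higher. *Hdac4* and *Musk* have log2 fold changes of -0.06 and -0.01. Other genes of the list, among them *Fbxo32*, which was lower by 0.62, are not drawn.

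The genes whose values over the 8 muscles were most like those of *Dach2* were sought among 12090 genes. The measure was the root mean square of the log2 differences, after the WT mean of each gene was removed. They were *Ces1d*, a carboxylesterase (0.487), *Slc15a5*, a solute carrier (0.63), and *Ppp1r1a*, an inhibitor of protein phosphatase 1 (0.648). Their log2 fold changes were -5.34, -5.88 and -5.31, and *Slc15a5* had from 0 to 3 reads in the *mdx5cv* muscles. This measure is driven by the difference between genotypes, so the likeness describes that difference.

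The genome around the members did not share 1 direction. Within 1 Mb of *Dach2* 3 genes were tested. *Chm*, 112 kb before it, had a log2 fold change of -0.44 (SE 0.13, adjusted p = 0.0146), *Apool*, 925 kb before it, was at -0.49 (SE 0.14, adjusted p = 0.0135), and *Klhl4*, 638 kb after it, was at -0.15 (SE 0.25, adjusted p = 0.673). These differences were all far smaller than that of *Dach2*. On chromosome X as a whole 17.0% of 406 genes tested were lower. Over all genes tested 20.1% were lower and 20.9% were higher, and the counts around the other members stand beside these shares. Of the genes tested within 1 Mb of *Eya3*, 11 of 42 were higher and 5 were lower, and around *Eya4* 1 of 11 was higher and 4 were lower. Around *Six4* 1 of 12 was higher and 2 were lower, around *Eya1* 3 of 9 and 1, around *Dach1* 1 of 4 and 1, around *Six5* 10 of 36 and 4, around *Eya2* 6 of 26 and 4, and around *Six2* 1 of 8 and 1. Genes annotated inside or across the members, such as the pseudogene *Gm16331* opposite *Dach1*, had at most 10 reads in any muscle.

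Whole TA muscle holds many cell types, and their markers differed between genotypes in the muscles in which the members were measured. Markers of skeletal muscle fibers, the labelled tissue, were abundant in all libraries, with summed normalized counts from 873280 to 1074100 in WT and from 635430 to 965400 in *mdx5cv*, and 2 of the 6 were lower (*Ckm* and *Tnnt3*) and none was higher. All 6 macrophage markers were higher, with sums from 481 to 746 in WT and from 3565 to 8548 in *mdx5cv*. Of the fibroblast markers 5 of 6 were higher, with sums from 5365 to 8125 and from 17679 to 31691, and of the satellite cell markers 3 of 8 tested (of 9) were higher, with sums from 780.4 to 970.3 and from 1056 to 1733. All 5 endothelial markers were lower, with sums from 2513 to 3045 and from 1536 to 1968. Of the Schwann cell markers 4 of 5 tested (of 6) were lower, with sums from 322 to 666 and from 149 to 273, and of the adipocyte markers 2 of 5 were lower, with sums from 124 to 547 and from 67.6 to 142. Of the smooth muscle and pericyte markers 3 of 6 were higher and 2 were lower, with sums from 6684 to 7923 and from 4883 to 5718, and none of the 6 tenocyte markers passed, with sums from 819 to 2255 and from 1509 to 2310. *Mymx* was at 0 in every WT muscle, and no other marker of another cell type was absent from a whole genotype. Under equal totals the lower endothelial markers were 2 and the lower Schwann cell markers 1. In that setting 6 of 8 satellite cell markers and 3 of 6 tenocyte markers were higher. Of the adipocyte markers 1 was then higher and 1 lower, and the same held for the skeletal muscle markers. The part of these cell types in the differences of the members was not tested.

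The muscles of 1 genotype were not alike in these markers. *mdx5cv* muscle 4 had the highest summed level of the 4 *mdx5cv* muscles for regenerating fiber, macrophage, fibroblast and satellite cell markers and the lowest for fast fiber genes. It was also the lowest of the *mdx5cv* muscles for 4 of the 9 members, *Six4*, *Eya1*, *Eya4* and *Dach2*, and the highest for *Six5*. Among WT muscles, muscle 2 was the lowest for 6 of the 9 members and the highest for *Six4* and *Dach2*. Without *mdx5cv* muscle 4, 3 of the 8 members tested were lower and 1 was higher, and *Eya1* and *Dach1* no longer passed.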

How the data were processed

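RNA-seq of 4 WT and 4 *mdx5cv* TA muscle samples was analysed, with groups taken from the labels. Libraries were stranded total RNA libraries after Trizol extraction. The submitters' processing notes list FastQC, Trim Galore 0.6.4, STAR 2.6.0c, SAMtools 1.9, featureCounts, MultiQC 1.6, DESeq2 1.26.0, R 3.6.2 and mm10, and the strand setting and annotation of the counting are not given in the sources used here. The values that the authors deposited are a normalized signal, the read counts of each gene over a size factor of its sample. Whole reads were recovered from them (100% whole within 0.01 read). Reads of any 2 replicates differed beyond sampling noise (chi-square per degree of freedom 8.59 to 38.4).

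The comparison used limma 3.58.1 in R 4.3.3 (variance trend, two-sided, no covariate). Alternatives were pseudocounts of 0.1 and 10, other filters, TMM factors, equal totals, median centring, no trend, a replicate block, each muscle left out, and edgeR 4.0.16 and DESeq2 1.42.0 on recovered reads. The script was tested on simulated data. Gene positions are from GENCODE M21, in which 55141 of 55401 IDs were found with versions ignored, and promoters are from RefSeq on GRCm38.p6. Lengths are merged exons. The exact permutation tests of paralog ratios (scipy 1.17.1), and the counts of lists under other scalings and without *mdx5cv* muscle 4, were added after the data were seen.

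The members and the gene lists were chosen with earlier results of these data known. All 9 members are named. From each list of linked genes the 2 largest rises and the 2 largest falls that passed are named, with other genes that a result turns on, and the 3 genes most like *Dach2*. Marker lists of cell types are given as counts and sums. In 2 of the lists 1 gene each is counted but not reported here by name. Members not called and other genes of the lists beyond these were named after their values were seen.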

Additional observations from a re-analysis of the deposited data

How the results depend on the processing

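Of the 8 members tested, 1 was higher under every alternative. The count of lower members was 5, and stayed at 4 or 5 under the alternatives other than equal totals, where it was 1, and leaving out a muscle, where it ranged from 3 to 5, with 3 without WT muscle 1, without WT muscle 4 and without *mdx5cv* muscle 4. The log2 fold change of *Eya2* turned to 0.0927 under equal totals, where the median over all genes tested was 0.36. With a normalized count of at least 10 required in every muscle, 0 members were past an absolute log2 fold change of 1, since *Dach2* was then left out, and 1004 genes were past it over the whole table, against 1861, and 2844 without a filter. Without a filter more genes were tested. The test of replicate numbers gave correlations of 0.05, 0.03, 0.07 and 0.15 between the deviations of same-numbered muscles, so the numbers were not taken to pair them. With a replicate block 1 member was higher and 5 were lower, 1 was past the fold threshold, and 1882 genes of the whole table were. Counts by edgeR and DESeq2 were also 1 higher and 5 lower.

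Between 1 and 56 reads per muscle stood behind *Six2*, *Six5* and *Eya2*, and between 1 and 4 behind *Dach2* in *mdx5cv*. Intervals of read ratios cover counting error only.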
